A study of Mus musculus with 11 samples.

Results

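The transcriptome of untreated neural progenitor cells (NPCs) was described from the 3 Ctr libraries among the 11 libraries of a study on the mRNA decay factor SMG6. Every Ctr library held total RNA of NPCs from the brain of 1 mouse embryo at E13.5 (labelled SMH_128, SMH_132 and SMH_133, of which the plots give the digits alone) with the genotype *Smg6* Flox/Flox; RosaCreER tg/+ and without 4-OHT, so both *Smg6* alleles were floxed and the tamoxifen-dependent recombinase was carried but not activated by treatment. The strain was C57BL/6 mixed with 129SV. Cells grew as neurospheres in DMEM/F12 that held bFGF (10 ng/ml), EGF (20 ng/ml) and B-27 (2%). The labels date the analysis of the cultures to day 6, counted from the start of 4-OHT in the treated ones, of which 3 days were spent with 4-OHT. For the RNA-seq cultures the sources name brains and no region. Each embryo gave 1 Ctr library, so differences between embryos, between cultures and between library preparations cannot be told apart within Ctr, and in bulk RNA fewer cells of a type and less RNA per cell cannot be told apart either. The same 3 embryos each gave a second library from cells of the same genotype treated with 1 µM 4-OHT (*Smg6*-iKO). These second libraries were used only to see whether the order of the embryos and the ratios between them recurred. The level of a gene was not compared between the groups.

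NPCs of the embryonic brain line the ventricles, divide under the control of EGF, FGF and Notch signals, and give rise first to neurons and later to astrocytes and oligodendrocytes. In culture with EGF and bFGF they form floating neurospheres, which usually hold stem-like cells together with more committed progenitors and their progeny. SOX2 is a transcription factor of the progenitor state, nestin (*Nes*) and vimentin (*Vim*) are intermediate filament proteins of radial progenitors, and *Fabp7* encodes the brain lipid-binding protein of radial glia.

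The promoters of these 4 defining markers are shown because the 4 genes were among the highest in the cultures and yet differed in base composition. The 150 bases before the RefSeq start on GRCm38.p6 are given 5′ to 3′ on the strand of the gene, with each CpG in capitals, and *Hbb-bt*, an adult beta-globin gene without a count in any Ctr library, is given for contrast. They lie at chr3:34649845-34649994 (*Sox2*, plus strand), chr3:87970943-87971092 (*Nes*, plus strand), chr2:13574161-13574310 (*Vim*, plus strand), chr10:57784773-57784922 (*Fabp7*, plus strand) and chr7:103813924-103814073 (*Hbb-bt*, minus strand).
Sox2: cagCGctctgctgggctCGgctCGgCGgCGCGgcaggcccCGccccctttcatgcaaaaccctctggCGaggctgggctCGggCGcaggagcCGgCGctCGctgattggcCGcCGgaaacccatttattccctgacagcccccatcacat
Nes: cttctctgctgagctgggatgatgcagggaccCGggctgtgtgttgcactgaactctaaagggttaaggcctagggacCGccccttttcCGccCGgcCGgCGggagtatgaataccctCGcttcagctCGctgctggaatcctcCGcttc
Vim: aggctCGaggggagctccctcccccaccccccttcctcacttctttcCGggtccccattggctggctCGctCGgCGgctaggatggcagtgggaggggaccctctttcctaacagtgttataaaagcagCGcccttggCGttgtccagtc
Fabp7: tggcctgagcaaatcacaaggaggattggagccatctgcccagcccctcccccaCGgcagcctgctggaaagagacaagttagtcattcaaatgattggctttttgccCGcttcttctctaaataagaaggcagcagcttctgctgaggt
Hbb-bt: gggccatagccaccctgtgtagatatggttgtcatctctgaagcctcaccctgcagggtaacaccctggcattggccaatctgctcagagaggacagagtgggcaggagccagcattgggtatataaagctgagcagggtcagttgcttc
Of the 150 bases shown, *Sox2* held 15 CpGs, *Nes* 9, *Vim* 7, *Fabp7* 2 and *Hbb-bt* 0. Over the 300 bases from 250 before to 50 after the start, the observed-to-expected CpG ratio was 0.82 in *Sox2* and 0.70 in *Nes*, both at or above the threshold of 0.6 used here with a GC content of at least 50% for a CpG-rich promoter. The ratio was 0.42 in *Vim*, 0.28 in *Fabp7* and 0.063 in *Hbb-bt*, so the progenitor marker with the highest level had the lowest CpG ratio of the 4. The letters TATAAA on the strand of the gene, with their first base from 40 to 20 bases before the start, were found in *Vim* (at -32) and *Hbb-bt* (at -28) and not in the windows of the other 3. Of all 32851 promoters from RefSeq 33.5% were CpG-rich and 1.99% held TATAAA at this distance, while on either strand and anywhere in the 300 bases 13.6% held it. Among protein-coding genes, 81.1% of those at 10 to 100 TPM (reads per base of gene length, scaled to the same sum in each library) and 80.3% of those at 100 TPM or more were matched to the table, and 71.8% and 75.7% of their promoters were CpG-rich. The 33.5% covers every RefSeq promoter and not those of protein-coding genes alone, so it is no background for these classes. For genes under 10 TPM fewer than 80% were matched, so the comparison over all classes of expression was void and is not given.

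The libraries were similar in depth and composition. Reads counted on genes summed to 29793790 in embryo SMH_128, 31576493 in embryo SMH_132 and 26478257 in embryo SMH_133. Protein-coding genes took between 91.70% and 92.02% of them, mitochondrial rRNA between 1.30% and 1.35% and mitochondrial mRNA between 0.664% and 0.670%. A read on a gene of 1 kb was worth between 0.097 and 0.112 TPM. Because *Rn7sk*, the short RNA of the 7SK particle that holds back RNA polymerase II elongation, took between 21.2% and 23.5% of the TPM in a library but between 2.295% and 2.590% of the counts, TPM of other genes are scaled down by its share. Levels are given in TPM, but embryos were ranked, and ratios and coefficients of variation computed, on read counts scaled to the library size and normalised by TMM (CPM), so a small difference in TPM can have another order on that scale.

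At least 1 TPM in all 3 libraries was reached by 15812 of 53801 identifiers, of which 12585 were protein-coding (of 21967) and 331 lincRNA (of 5340). Among protein-coding genes 1236 lay from 100 to under 1000 TPM on average and 40 at 1000 TPM or more. The 10 highest genes together took between 8.21% and 8.71% of the counts, and between 1227 and 1264 genes were needed to reach 50% of them.

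All 4 defining markers were expressed at high levels in every culture. *Fabp7* was at 3369, 4097 and 3352 TPM in embryos SMH_128, SMH_132 and SMH_133 and ranked 6 among protein-coding genes. *Vim* was at 1451, 1372 and 1354 TPM. *Sox2* was at 452, 439 and 370 TPM and *Nes* at 346.8, 391.6 and 400.9 TPM. For each marker the 3 libraries lay within 1.23-fold of each other after normalisation, and none of the 4 went against the label of neural progenitors. Markers of neurons and of glial lineages were also present.

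**Figure D1:**
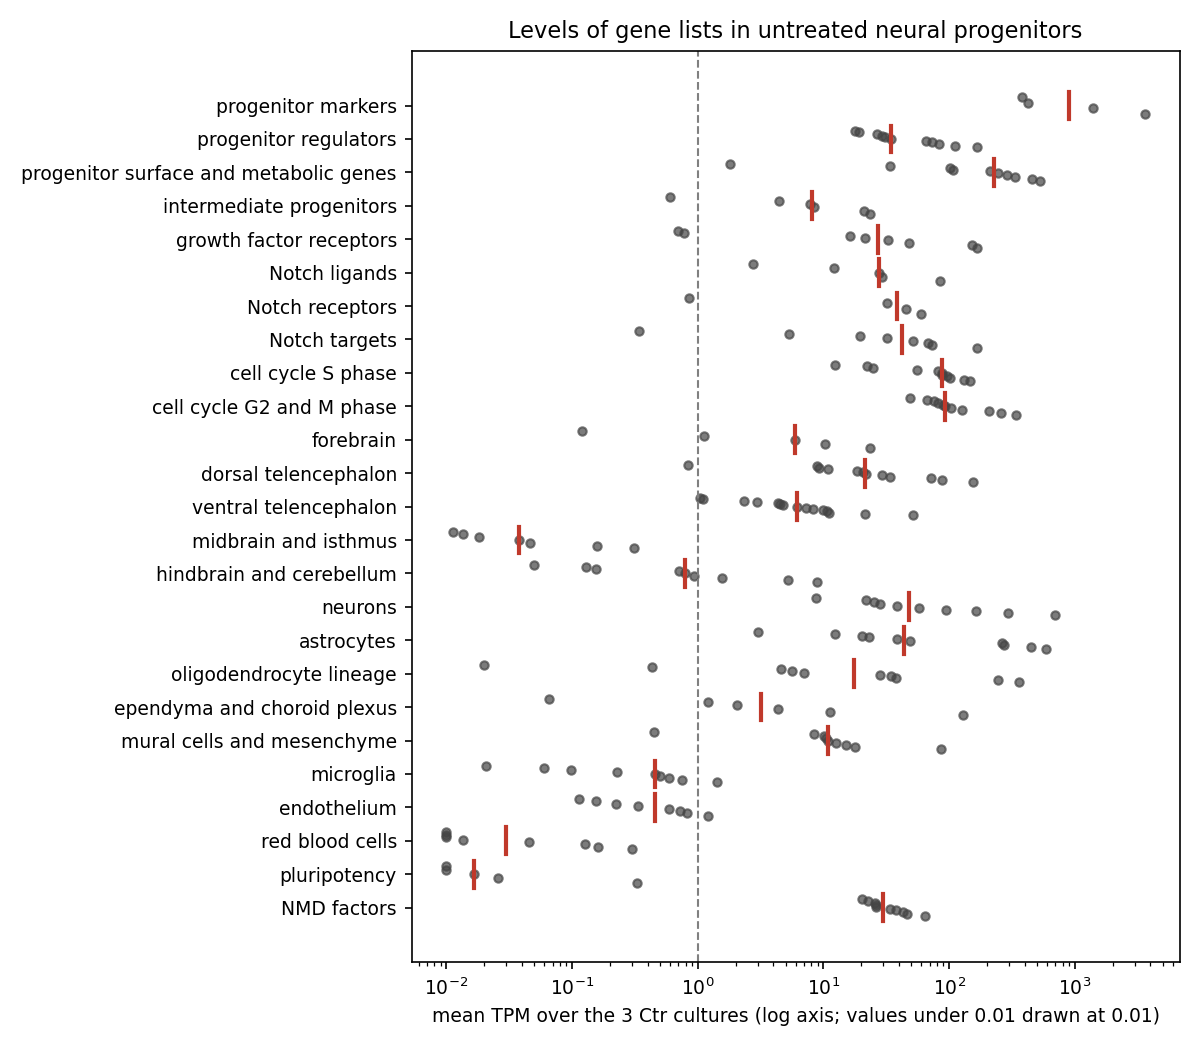
Mean TPM over the 3 Ctr cultures (horizontal log axis) for every gene of 25 lists, 1 point per gene, with the median of the list as a red bar and 1 TPM as a dashed line. The 4 progenitor markers lie between 380 and 3606 TPM, whereas all genes of the midbrain, red blood cell and pluripotency lists lie under 1 TPM.

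The highest protein-coding genes were those of translation, energy metabolism and the cytoskeleton, with *Fabp7* and *Igfbp2* among them. *mt-Co1*, a subunit of cytochrome oxidase, averaged 8951 ± 439 TPM (SD, n = 3, here and in the following values). The translation elongation factors *Eef1a1* and *Eef2* averaged 4072 ± 298 and 3656 ± 63.2 TPM. Among cytoskeletal genes, *Actb* (beta-actin) averaged 3772 ± 306 TPM, *Tmsb4x* (the actin-binding thymosin beta 4) 2849 ± 78.7 TPM and *Tubb5* (a beta-tubulin) 2614 ± 222 TPM. The ribosomal protein genes *Rplp1* and *Rpl8* averaged 3399 ± 99.6 and 2342 ± 43.4 TPM. Enzymes and the chaperone of this group were *Ckb* (brain creatine kinase, 2526 ± 126.2 TPM), *Aldoa* (aldolase, 2522 ± 150 TPM) and *Hsp90ab1* (2232 ± 113 TPM). *Igfbp2*, a secreted binding protein of insulin-like growth factors, averaged 2160 ± 54.3 TPM and *mt-Nd1*, a subunit of complex I, 2136 ± 217 TPM. The remaining gene of the 15 was *Gm10800*, a predicted gene of 660 bases on chromosome 2, at 1886, 8865 and 11190 TPM. It stood apart from the others because embryo SMH_128 was far lower, and it is taken up below with its relatives.

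Outside the protein-coding genes, *Rn7sk* was the highest at 235097, 212356 and 215343 TPM. The mitochondrial rRNA genes *mt-Rnr2* and *mt-Rnr1* averaged 22787 ± 468 and 3961 ± 219 TPM. The nuclear lincRNA *Malat1* averaged 7098 ± 607 TPM, and *Gm26917*, annotated as a lincRNA, 8604 ± 967 TPM. *Gm26917* lies at chr17:39843013-39846341, beside the rRNA gene *CT010467.1* at chr17:39846353-39848827. Whether its reads came from rRNA was not tested. *Rny3* and *Rny1*, the small RNAs of the Ro particle, were at 2071, 2812 and 3970 TPM and at 1882, 2606 and 3174 TPM, lowest in embryo SMH_128 for both. *Bc1*, a short neuronal RNA, was at 3839, 2338 and 2151 TPM, highest in embryo SMH_128. *Gm22009* (a small Cajal body RNA) averaged 2699 ± 269 TPM and *Gm23935* (annotated as a miRNA) 9709 ± 3755 TPM. Of the other nuclear RNAs on the list, *Rpph1*, the RNA of ribonuclease P, was at 2304, 1343 and 2412 TPM. The imprinted *Meg3* averaged 48.8 ± 1.496 TPM, its neighbours *Rian* 21.1 ± 0.65 TPM and *Mirg* 4.57 ± 0.81 TPM. *Neat1* averaged 7.29 ± 0.90 TPM, *Kcnq1ot1* 5.19 ± 0.94 TPM and *Snhg11* 23.6 ± 2.45 TPM. *Rmrp* had 0 counts under both of its identifiers, which overlap on the minus strand of chromosome 4 (43492783 to 43493063 and 43492788 to 43493058). Reads that fell on more than 1 gene were not counted, so its level cannot be read from these counts.

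All 11 regulators of the progenitor state that were listed reached 1 TPM in every culture, with a median of 34.7 TPM. *Hes5*, a repressor downstream of Notch, was the highest at 212, 157 and 134 TPM. It was followed by *Id3* and *Id1*, inhibitors of bHLH factors, at 111 ± 14.1 and 82.8 ± 15.3 TPM, and by *Hes1* at 72.6 ± 6.24 TPM. *Pou3f2* averaged 65.0 ± 3.87 TPM, *Sox9* 34.7 ± 4.52 TPM, *Sox3* 30.6 ± 3.06 TPM and *Sox1* 29.5 ± 0.57 TPM. *Msi1*, an RNA-binding protein of neural stem cells, averaged 26.4 ± 2.14 TPM, and the nuclear receptor *Nr2e1* (TLX) 19.2 ± 0.55 TPM. *Pax6*, a factor of dorsal progenitors, was the lowest of the list at 17.8 ± 1.99 TPM.

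Surface and metabolic genes of radial progenitors had a median of 229 TPM over 10 genes. *Gpm6b* (a membrane proteolipid) averaged 524 ± 67.7 TPM, *Slc1a3* (the glutamate transporter GLAST) 456 ± 53.9 TPM and *Tnc* (tenascin C) 334 ± 9.38 TPM. *Cd24a* averaged 291 ± 18.0 TPM, *Ptprz1* (a receptor phosphatase) 245 ± 37.9 TPM and *Bcan* (brevican) 213 ± 7.82 TPM. *Itga6* (integrin alpha 6) averaged 108 ± 2.16 TPM, *Phgdh* (the first enzyme of serine synthesis) 101.9 ± 7.997 TPM and *Prom1* (CD133) 33.9 ± 3.55 TPM. *Fut4*, whose enzyme makes the stem cell epitope SSEA-1, was at 1.82 ± 0.028 TPM and was by far the lowest of the list.

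Receptors for the growth factors of the medium were expressed. *Egfr* was at 147, 169 and 143 TPM, and of its relatives *Erbb2* averaged 21.5 ± 0.71 TPM and *Erbb4* 16.3 ± 1.49 TPM, whereas *Erbb3* stayed at 0.78 ± 0.12 TPM. Among FGF receptors *Fgfr3* was the highest at 171, 180 and 147 TPM. *Fgfr1* averaged 48.3 ± 0.51 TPM, *Fgfr2* 32.4 ± 3.30 TPM and *Fgfr4*, which varied by 2.89-fold, 0.70 ± 0.34 TPM. The values of *Egfr* and *Fgfr3* overlapped, while all 3 *Fgfr1* values lay below all of theirs.

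Members of the Notch pathway were present at every step. Of the ligands *Dll1* was the highest at 90.9, 84.7 and 77.6 TPM, followed by *Jag1* (29.3 ± 2.28 TPM), *Dll3* (27.6 ± 1.19 TPM), *Jag2* (12.2 ± 1.34 TPM) and *Dll4* (2.75 ± 0.14 TPM). Of the receptors *Notch1* averaged 59.4 ± 5.65 TPM, *Notch2* 45.2 ± 3.07 TPM, *Notch3* 32.2 ± 2.42 TPM and *Notch4* 0.86 ± 0.084 TPM. Beside *Hes5* and *Hes1*, the targets *Hey1* and *Nrarp* averaged 67.5 ± 8.22 and 51.4 ± 0.97 TPM, *Hey2* 5.28 ± 1.14 TPM and *Heyl* 0.34 ± 0.060 TPM. The inhibitors *Numbl* and *Numb* averaged 32.2 ± 2.18 and 19.7 ± 0.65 TPM.

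The listed genes of the cell cycle were all above 1 TPM. In G2 and M phase, *Top2a* (topoisomerase II alpha) was at 346, 361 and 322 TPM and the proliferation marker *Mki67* at 252, 275 and 248 TPM. *Ccna2* averaged 206 ± 5.99 TPM, *Ccnb2* 127.5 ± 14.2 TPM, *Cdk1* 104 ± 5.27 TPM and *Ccnb1* 49.0 ± 3.85 TPM. The mitotic kinases *Aurkb*, *Plk1*, *Aurka* and *Bub1* averaged 93.5 ± 5.39, 89.5 ± 0.89, 81.3 ± 1.58 and 67.0 ± 3.36 TPM, and *Cenpf* of the kinetochore 76.2 ± 5.11 TPM. Of the G1 cyclins *Ccnd1* averaged 428 ± 33.4 TPM, *Ccnd2* 386 ± 15.1 TPM and *Ccnd3* 22.0 ± 0.35 TPM. In S phase *Rrm2* (a ribonucleotide reductase subunit) was at 131.3, 150.3 and 155.0 TPM and *Pcna* at 114.9, 132.1 and 149.7 TPM, and the 6 helicase genes *Mcm2* to *Mcm7* averaged between 55.5 and 101 TPM.

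Of the forebrain list 4 of 5 genes reached 1 TPM in every culture, while the midbrain genes stayed below it and the hindbrain genes were mixed. *Otx1* was at 10.3 ± 0.33 TPM and *Otx2* at 7.43, 4.99 and 5.39 TPM. *Six3* was at 1.13 ± 0.084 TPM and *Rax*, of the eye field and hypothalamus, at 0.12 ± 0.098 TPM. In the midbrain and isthmus list 0 of 7 genes reached 1 TPM, the highest being *En2* at 0.31 ± 0.078 TPM. In the hindbrain and cerebellum list 3 of 9 did in every culture, at levels that overlapped those of the forebrain list, and 3 stayed under 1 TPM in all cultures. The highest of the list, on average above *Otx2*, is not reported here. *Egr2* was at 5.20 ± 0.86 TPM and *Irx2* at 1.56 ± 0.11 TPM, while the cerebellar factors *Atoh1* and *Ptf1a* were at 0.13 ± 0.032 and 0.049 ± 0.085 TPM. None of 39 *Hox* genes reached 1 TPM and 25 had no count in any library.

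Dorsal and ventral factors of the telencephalon were expressed side by side. Of 12 dorsal genes 11 reached 1 TPM in every culture, with a median of 21.2 TPM. *Lhx2* was at 75.9, 70.6 and 69.2 TPM, *Cux1* at 33.9 ± 1.42 TPM, *Emx1* at 20.7 ± 2.35 TPM and *Emx2* at 18.3 ± 2.22 TPM. Factors of newborn cortical neurons were led by *Neurod6* (145, 144 and 172 TPM) and *Neurod2* (88.6, 72.0 and 100 TPM), with *Bcl11b* (CTIP2) at 29.3 ± 4.48 TPM, *Fezf2* at 21.8 ± 2.58 TPM, *Cux2* at 9.13 ± 1.33 TPM and *Tbr1* at 8.85 ± 1.01 TPM. *Lhx9* was the dorsal gene that stayed under 1 TPM (0.83 ± 0.057 TPM). Of 15 ventral genes 13 reached 1 TPM in every culture, with a lower median of 6.12 TPM. The highest ventral gene, which lay above all those named here, is not reported. *Gad1* and *Gad2*, the enzymes of GABA synthesis, were at 21.5 ± 1.16 and 10.7 ± 1.59 TPM. The interneuron factors *Dlx1*, *Dlx2* and *Dlx5* averaged 11.1 ± 1.41, 4.51 ± 1.04 and 4.31 ± 0.41 TPM, and *Dlx6* was at 4.29, 5.23 and 4.89 TPM. *Lhx6* averaged 9.87 ± 0.60 TPM, *Nr2f2* 8.23 ± 1.03 TPM, *Sp8* 7.29 ± 0.31 TPM, *Gsx2* 6.12 ± 1.09 TPM, *Sp9* 2.95 ± 0.64 TPM and *Lhx8* 2.34 ± 0.24 TPM. *Nkx2-1* of the medial ganglionic eminence and *Gsx1* were near 1 TPM, at 1.10 ± 0.23 and 1.05 ± 0.077 TPM.

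Markers of intermediate progenitors and neurons were detected. *Neurog2* was at 21.7, 22.0 and 26.7 TPM, *Insm1* at 20.9 ± 1.58 TPM, *Neurod1* at 8.34 ± 0.15 TPM, *Eomes* (TBR2) at 7.38, 6.07 and 10.0 TPM and *Tfap2c* at 4.40 ± 1.22 TPM, whereas *Neurog1* stayed at 0.60 ± 0.20 TPM. All 10 neuron genes were above 1 TPM. *Tubb3*, the antigen of the TUJ1 antibody, was at 749, 570 and 760 TPM, *Gap43* of growth cones at 319, 252 and 306 TPM and *Map2* of dendrites at 162 ± 6.61 TPM. *Stmn2* averaged 95.2 ± 7.88 TPM, *Dcx* of migrating neurons 57.5 ± 1.56 TPM and *Elavl4* 38.2 ± 0.60 TPM. Genes of more mature neurons were lower, with *Nefl* at 28.4 ± 4.75 TPM, *Snap25* at 25.3 ± 1.34 TPM, *Syt1* at 22.0 ± 2.91 TPM and *Rbfox3* (NeuN) at 8.72 ± 1.11 TPM.

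The oligodendrocyte lineage was represented by its early factors. *Olig1* was at 336, 370 and 379 TPM and *Olig2* at 220, 245 and 272 TPM, both also expressed in ventral progenitors. *Sox10* averaged 37.9 ± 4.49 TPM, *Pdgfra* 34.6 ± 0.73 TPM and *Cspg4* (NG2) 27.9 ± 3.22 TPM, the 3 markers of oligodendrocyte precursors. Myelin genes were low, with *Mbp* at 5.60 ± 1.24 TPM, *Mag* at 0.43 ± 0.26 TPM and *Mog* at 0.020 ± 0.034 TPM. Of the astrocyte list *Apoe* was at 656, 680 and 417 TPM, *Sparcl1* at 451 ± 52.0 TPM, *Aldh1l1* at 275 ± 15.7 TPM and *Aldoc* at 261 ± 27.1 TPM, genes that radial glia share. *Gja1* averaged 48.5 ± 4.03 TPM, *Slc1a2* 38.5 ± 5.57 TPM and *Clu* 22.9 ± 6.62 TPM. *Gfap* was at 18.1, 11.6 and 7.35 TPM, *Aqp4* at 25.7, 19.6 and 15.2 TPM and *S100b* at 2.45, 4.64 and 2.03 TPM.

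Markers of blood, endothelium and microglia were near or below 1 TPM, but those of mural cells and mesenchyme and those of choroid plexus were not. Of 9 microglia genes 1 reached 1 TPM in all cultures (*Tmem119*, 1.42 ± 0.53 TPM), and the defining *Ptprc*, *Cx3cr1* and *Csf1r* were at 0.021 ± 0.0044, 0.060 ± 0.044 and 0.098 ± 0.051 TPM. Of 8 endothelial genes 1 did (*Kdr*, 1.22 ± 0.18 TPM), with *Pecam1* at 0.81 ± 0.23 TPM and *Cdh5* at 0.22 ± 0.10 TPM. None of 8 red blood cell genes and none of 5 pluripotency genes did, and 5 of these 13 had no count in any library, where 3 counts would correspond to between 0.15 and 0.50 TPM. Of the list of mural cells and mesenchyme 8 of 9 reached 1 TPM, led by the collagen *Col3a1* at 72.4, 78.8 and 107 TPM, with *Col1a2* at 17.9 ± 3.37 TPM, *Lum* at 15.01 ± 3.74 TPM and *Dcn* at 12.5 ± 3.69 TPM. Of the ependymal and choroid plexus list *Ttr* (transthyretin) was at 235, 40.3 and 115 TPM, *Foxj1* of ciliated cells at 11.2 ± 0.77 TPM, *Aqp1* at 7.22, 2.18 and 3.69 TPM and *Folr1* at 2.11, 0.51 and 0.97 TPM.

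All 10 listed factors of nonsense-mediated mRNA decay (NMD), the surveillance pathway in which SMG6 is the endonuclease, were above 1 TPM in every culture. *Smg6* was at 23.9, 28.5 and 25.6 TPM, which is its level with both alleles floxed and no 4-OHT. The adaptor *Smg5* averaged 42.9 ± 2.20 TPM, the helicase *Upf1* 45.9 ± 2.90 TPM and its kinase *Smg1* 37.8 ± 3.12 TPM. *Upf2* averaged 34.0 ± 2.98 TPM, *Upf3b* 26.0 ± 0.70 TPM, *Smg9* 25.9 ± 1.10 TPM, *Smg8* 22.4 ± 1.93 TPM and *Upf3a* 20.1 ± 0.22 TPM. Reads on the estrogen receptor gene *Esr1*, whose ligand-binding domain is part of CreERT2 in its human form, gave 0.87, 0.92 and 1.00 TPM. All 10 listed immediate-early genes were above 1 TPM, led by *Jun* (257, 213 and 255 TPM) and *Fos* (72.4 ± 3.70 TPM).

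Families of transcription factors differed in how evenly their members shared the RNA. Among 19 *Sox* genes 13 reached 1 TPM in all cultures, and the highest, *Sox4* at 481 ± 27.5 TPM, held 28.2% of the summed level of 1707 TPM, ahead of *Sox2* at 420 ± 43.9 TPM and *Sox11* at 381 ± 16.7 TPM. Among 9 *Pax* genes *Pax6* held 97.7%. *Pou3f3* held 66.0% of the *Pou3f* family at 214 ± 5.39 TPM, *Nfib* 60.9% of the *Nfi* family at 139 ± 14.6 TPM and *Foxo3* 61.1% of the *Foxo* family at 119 ± 10.9 TPM. All 8 *E2f* genes were above 1 TPM, led by *E2f5* at 84.5 ± 10.6 TPM, and 14 of 17 *Klf* genes were, led by *Klf10* at 131.2 ± 18.9 TPM. *Zic2* (35.5 ± 3.16 TPM) led the *Zic*, *Meis2* (67.8 ± 2.11 TPM) the *Meis* and *Id2* (126.4 ± 12.2 TPM) the *Id* genes. *Nkx2-2*, of oligodendrocyte precursors and ventral progenitors, held 71.5% of the *Nkx* genes at 7.03 ± 0.46 TPM.

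The spread between cultures was small for most genes. A gene was tested for variation among the 3 libraries beyond counting error with a Poisson fit in edgeR (dispersion 0, residual deviance against the chi-square distribution with 2 degrees of freedom), adjusted by Benjamini and Hochberg over the 16714 genes that passed edgeR's filter on low counts. The test covers counting error alone, and reads carry no molecular identifiers. At an adjusted p under 0.05, 6570 genes (39.3%) varied, and 252 of them (1.51%) also differed by at least 2-fold between the highest and the lowest library. With any 1 of the 3 libraries left out, between 3993 and 4261 genes varied and between 120 and 130 of them by at least 2-fold. The median coefficient of variation (CV) was 7.71%, against 4.02% for counting error at the same depth, and the median ratio of highest to lowest was 1.16. The common biological CV fitted by edgeR was 9.56%. The share called rose with depth, where 9.40% of genes with under 100 counts on average were called, 33.2% of those from 100 to 1000, 63.0% of the next class and 93.8% of the 338 deepest genes. Among these 338 genes the median CV was 5.02% and counting error 0.82%. In pairs of libraries the chi-square per gene was between 11.0 and 18.3 and the SD of the difference in log2(CPM + 0.5) between 0.23 and 0.26, so no library repeated another. Embryos SMH_128, SMH_132 and SMH_133 were the highest in 33.4%, 32.3% and 34.4% of all tested genes and the lowest in 33.3%, 32.2% and 34.5%. Among genes with 1000 counts or more on average these shares were 39.3%, 28.1% and 32.6% for the highest and 27.7%, 35.1% and 37.2% for the lowest.

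Among the steadiest protein-coding genes with at least 50 TPM on average were *Trim44*, *Grhpr*, *Psmb1* and *Sdf4*, with a CV between 0.054% and 0.17%. Their CV lay below that of counting alone, which was between 1.11% and 3.11%. *Psmb1*, a proteasome subunit, was at 480, 500 and 483 TPM and *Trim44* at 144, 150 and 145 TPM.

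No progenitor gene of the 3 lists reached 2-fold, against 1.51% of all tested genes. The median CV was 8.20% for the 4 markers, 11.1% for the regulators and 8.99% for the surface and metabolic genes, against 7.71% over all tested genes. All 4 defining markers exceeded counting error, as did 63.0% of genes in the depth class of *Sox2* and 93.8% in that of *Nes*, *Vim* and *Fabp7*, with ratios between 1.10 (*Vim*) and 1.23 (*Sox2*). Of the 11 regulators 9 varied, as did 9 of the 10 surface and metabolic genes, against 39.3% of all tested genes. Most genes of both lists had over 1000 counts on average, and of all genes in these depth classes 63.0% or 93.8% were called, with a median CV of 5.16% or 5.02%. Of the regulators 7 were lowest in embryo SMH_133, an embryo that was lowest in 34.5% of all tested genes. *Hes5* had the largest ratio of them at 1.59 and was highest in embryo SMH_128. For *Sox1* (ratio 1.02, adjusted p = 0.885, edgeR) and *Nr2e1* (ratio 1.01, adjusted p = 0.984, edgeR) no variation beyond counting error was detected. The G2 and M phase genes had a median CV of 3.23% and the NMD factors of 6.34%. Neither list held a gene of 2-fold, against 1.51% of all tested genes.

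S phase genes moved together by small amounts. All 11 varied beyond counting error, all 11 were lowest in embryo SMH_128 and 10 were highest in embryo SMH_133, the exception being *Ccne2*, highest in embryo SMH_132. Over all tested genes 39.3% varied, embryo SMH_128 was lowest in 33.3% and embryo SMH_133 highest in 34.4%. The summed level was 754, 859 and 925 TPM, the median ratio 1.21, and *Pcna* had the largest ratio of the list at 1.30. *Mcm2* to *Mcm6* and *Pcna* kept the highest and the lowest embryo in the second libraries, as 7 of the 11 did with *Tyms*, against 28.3% of all tested genes. Summed levels of the G2 and M phase list were 1500, 1564 and 1423 TPM and were in another order, lowest in embryo SMH_133 for 8 of 11 genes.

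Neuron genes were lowest in embryo SMH_132 in 9 of 10 cases, *Map2* being the exception, with a median ratio of 1.28 and sums of 1515, 1247 and 1507 TPM. Embryo SMH_132 was lowest in 32.2% of all tested genes. *Tubb3* had a ratio of 1.39 and *Nefl* of 1.44. The dorsal list followed, with 9 of 12 lowest in embryo SMH_132 and 8 of 12 highest in embryo SMH_133. Embryo SMH_133 was highest in 34.4% of all tested genes. *Neurod2* had the largest ratio of the dorsal list at 1.45. The order of the embryos recurred in the second libraries for 4 of 10 neuron genes and 1 of 12 dorsal genes, against 28.3% of all tested genes.

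Astrocyte genes were lowest in embryo SMH_133 in 9 of 10 cases and highest in embryo SMH_128 in 8 of 10, against 34.5% and 33.4% of all tested genes. The median CV of this list was 18.6%, against 7.71% over all tested genes, and all 10 varied, against 39.3%. *Gfap* differed by 2.46-fold and *S100b* by 2.17-fold, while *Clu* (1.72), *Aqp4* (1.70) and *Apoe* (1.58) had ratios under 2. The highest and the lowest embryo recurred in the second libraries for 7 of 10, against 28.3% of all tested genes. Of the oligodendrocyte lineage 8 genes were tested with a median CV of 10.2%, of which 6 varied, and *Pdgfra* (ratio 1.01) showed no variation beyond counting error (adjusted p = 0.962, edgeR).

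Genes of mural cells and mesenchyme were highest in embryo SMH_133 in 8 of 9 cases, against 34.4% of all tested genes, and summed to 145, 159 and 212 TPM. *Acta2* (smooth muscle actin) was at 6.28, 11.54 and 13.53 TPM and differed by 2.14-fold, and *Dcn*, *Lum*, *Col3a1* and *Col1a2* had ratios between 1.47 and 1.67. The order recurred in the second libraries for 1 of 9, against 28.3% of all tested genes. Genes of the ependymal and choroid plexus list had a median CV of 60.6% over 5 tested genes. *Ttr* was 6.07-fold, *Folr1* 4.21-fold and *Aqp1* 3.44-fold higher in embryo SMH_128 than in embryo SMH_132, with embryo SMH_133 between them for all 3, whereas for *Foxj1* of the same list no variation beyond counting error was detected (ratio 1.14, adjusted p = 0.442, edgeR). In the second libraries the same 3 genes kept this order, with *Ttr* 9.29-fold higher in embryo SMH_128 than in embryo SMH_132. The other members were low, *Rsph1* at 2.04 ± 0.55 TPM and *Kl* at 0.065 ± 0.057 TPM. Whether the neuronal, glial, mesenchymal and choroid plexus markers had a part in the spread of other genes was not tested.

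**Figure D2:**
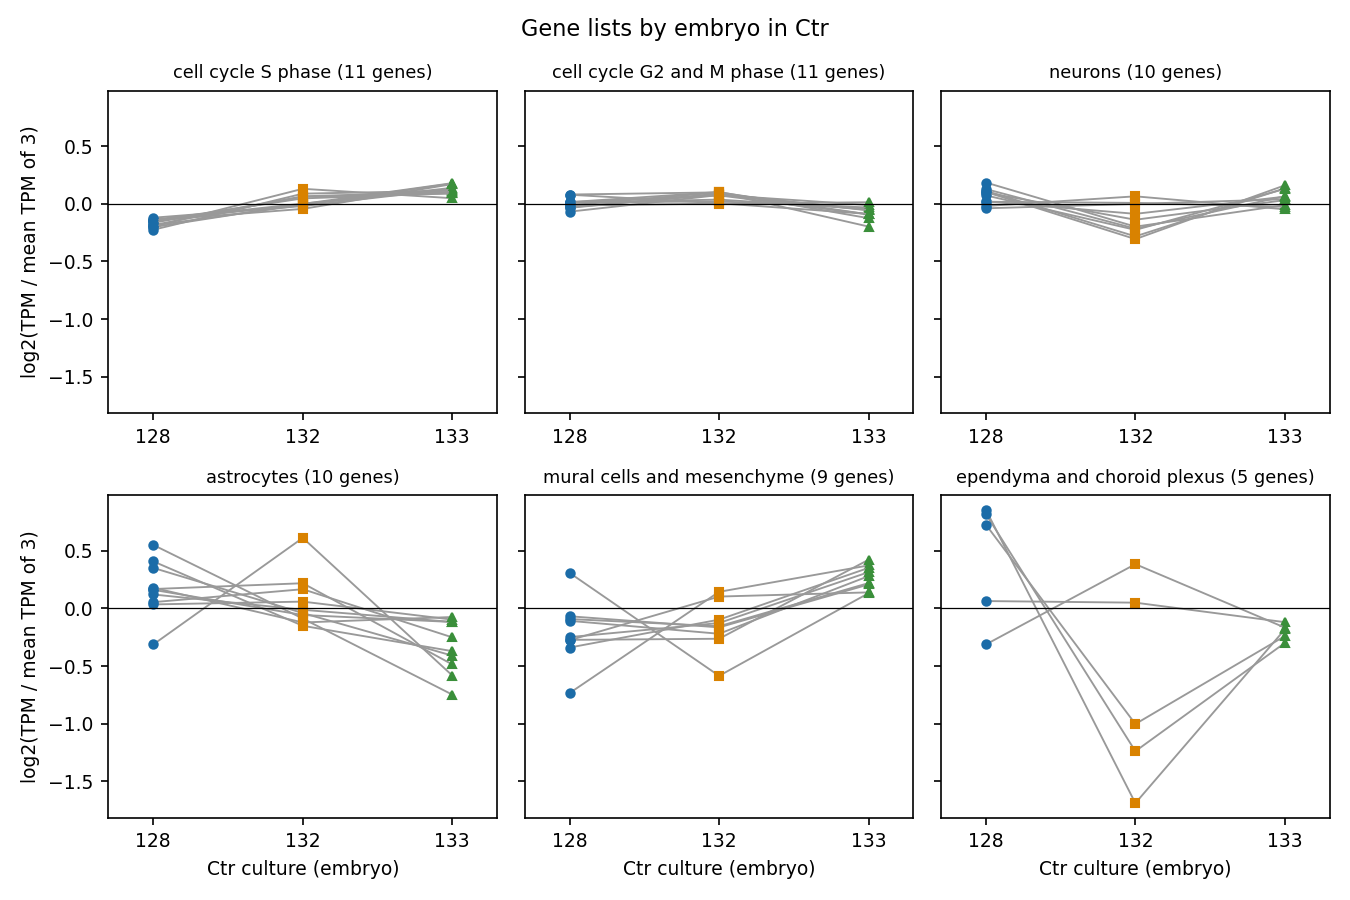
Log2 of the TPM of each tested gene over its mean of the 3 Ctr cultures (vertical axis) by embryo (horizontal axis), with 1 line per gene, for 6 lists. The 11 S phase genes are all lowest in embryo SMH_128, and in the choroid plexus panel the lines of *Ttr* (235, 40.3 and 115 TPM), *Aqp1* and *Folr1* drop from embryo SMH_128 to embryo SMH_132.

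Interferon-response genes were low. Of the 6 tested 4 varied, against 39.3% of all tested genes, and 3 of these 4 were lowest in embryo SMH_128, against 33.3%. *Usp18* was at 0.47, 2.68 and 1.44 TPM (5.29-fold) and *Oasl2* at 0.27, 0.65 and 0.67 TPM (2.42-fold). *Bst2*, at 28.6, 39.1 and 26.1 TPM, was lowest in embryo SMH_133. Of the 6 tested genes 2 kept their highest and lowest embryo in the second libraries, near the 28.3% of all tested genes.

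The largest ratio between the cultures was that of *Xist*, and 4 Y-linked genes were among the 6 largest. *Xist*, the RNA that coats the inactive X chromosome in female cells, was at 0.10, 0.35 and 139 TPM. The Y-linked *Ddx3y*, *Eif2s3y*, *Kdm5d* and *Uty* summed to 188, 199 and 2.91 TPM, with *Ddx3y* at 71.8, 77.6 and 0.92 TPM and *Eif2s3y* at 74.7, 76.6 and 1.31 TPM. Embryo SMH_133 thus stood alone with *Xist*, and embryos SMH_128 and SMH_132 with the Y genes. The 166 counts of the Y genes in embryo SMH_133 were not 0, and per TPM they were 1.503% of the mean of the other 2 libraries, whereas in the second libraries this share was 0.20%. *Xist* in embryos SMH_128 and SMH_132 was 0.073% and 0.25% of its level in embryo SMH_133. The 4 X-linked counterparts of the Y genes, looked up after the values of the Y genes were seen, were all highest in embryo SMH_133. *Kdm5c* was at 97.8, 97.7 and 131.7 TPM, *Eif2s3x* at 14.6, 12.6 and 21.6 TPM, *Kdm6a* at 30.5, 33.2 and 40.5 TPM and *Ddx3x* at 279, 295 and 333 TPM, and each varied beyond counting error. The X chromosome as a whole did not follow, with a median log2 difference of embryo SMH_133 from the mean of the other 2 of -0.045 over 540 genes, against 0.00066 over the autosomes. Leaving out the X and Y chromosomes left 243 genes of at least 2-fold.

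Of the 252 genes of at least 2-fold, 130 were protein-coding, 50 were of the provisional biotype TEC and 17 were processed pseudogenes. At least 1 TPM on average was reached by 188, of which 88 were protein-coding. Embryo SMH_128 was the one farthest from the other 2 in 24 genes by being higher and in 67 by being lower. For embryo SMH_132 these counts were 55 and 34, and for embryo SMH_133 they were 32 and 40. The 15 largest ratios among genes of at least 1 TPM included the 5 sex-linked genes, 5 processed pseudogenes, 1 rRNA gene, 1 ribozyme and 3 predicted protein-coding genes.

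**Figure D3:**
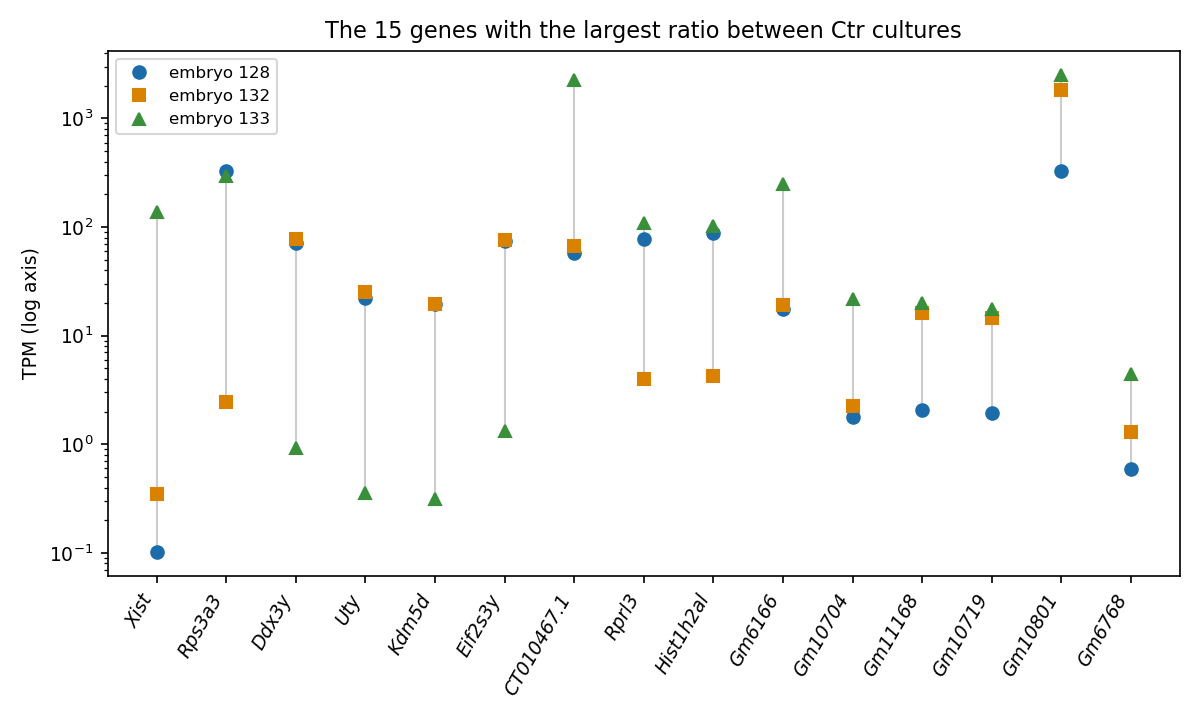
TPM (vertical log axis) of the 15 genes with the largest ratio between the highest and the lowest Ctr culture among genes of at least 1 TPM, with 1 symbol per embryo. Embryo SMH_133 is alone in *Xist*, the 4 Y genes, *CT010467.1*, *Gm6166*, *Gm10704* and *Gm6768*, embryo SMH_132 in *Rps3a3*, *Rprl3* and *Hist1h2al*, and embryo SMH_128 in *Gm11168*, *Gm10719* and *Gm10801*.

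*Rps3a3*, a processed pseudogene of the ribosomal protein gene *Rps3a1*, was the autosomal gene with the largest ratio. It lies at chr13:108670603-108671397 on the plus strand, and had 2564, 20 and 2096 counts, or 325, 2.44 and 294 TPM. *Rps3a1* itself, at chr3:86137940-86142702 on the minus strand and looked up after these values were seen, was at 124.8, 253.4 and 119.2 TPM, highest where *Rps3a3* was lowest. The annotated *Rps3a3* sequence matched *Rps3a1* at all but 9 of 795 aligned bases (98.9% identity), and 67.2% of its 31-base words occurred in *Rps3a1*. The 100 bases with the most mismatches are shown, at bases 161 to 260 of *Rps3a3* (chr13:108670763-108670862) and 294 to 393 of the *Rps3a1* transcript, with the mismatched bases in capitals.
Rps3a3: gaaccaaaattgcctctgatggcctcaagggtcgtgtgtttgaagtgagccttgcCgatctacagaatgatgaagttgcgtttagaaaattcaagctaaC
Rps3a1: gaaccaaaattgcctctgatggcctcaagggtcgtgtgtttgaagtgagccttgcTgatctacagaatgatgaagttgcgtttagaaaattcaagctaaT
With 2 mismatches in 100 bases, the 2 genes are near-identical copies, and how the counting split their reads is uncertain. Their summed CPM was 129, 80.9 and 118.

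The closest copies of the genes with the largest ratios were looked up after their values were seen. Of the other pseudogenes 3 had a close protein-coding copy, and none of these 3 copies differed by 2-fold. *Gm6166*, at 17.7, 19.2 and 248 TPM, shared 68.6% of its 31-base words with *Fabp5*, a fatty acid-binding protein gene at 125.1, 135.2 and 111.7 TPM. *Gm10704*, at 1.80, 2.26 and 21.9 TPM, shared 61.3% with *Rtraf*, at 119, 122 and 101 TPM. *Gm6768*, at 0.59, 1.29 and 4.46 TPM, shared 96.6% with *Ncoa4*, at 3.50, 3.96 and 3.26 TPM. All 3 pseudogenes were highest in embryo SMH_133. *Hist1h2al*, a histone gene annotated as a processed pseudogene, was at 88.0, 4.29 and 103 TPM, with 81.9% of its words in other genes, and *Rprl3*, a copy of the ribonuclease P RNA, at 76.8, 4.01 and 108 TPM. Both were lowest in embryo SMH_132.

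A group of predicted genes was low in embryo SMH_128 only. *Gm10801* on chromosome 2 was at 331, 1836 and 2531 TPM and *Gm10800* near it at 1886, 8865 and 11190 TPM, while *Gm11168* and *Gm10719* on chromosome 9 were at 2.08, 16.2 and 19.8 TPM and at 1.96, 14.5 and 17.8 TPM. *Gm11168* and *Gm10719* shared 50.7% and 50.6% of their words with each other, and *Gm10801* shared 29.3% of its words with *Gm10800*, so their values cannot be taken as independent. The rRNA gene *CT010467.1* on chromosome 17 had 1407, 1708 and 50443 counts, which is 0.0047%, 0.0054% and 0.19% of all counts, after depletion of rRNA in all libraries. It shared 36.2% of its words with *AY036118*.

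Among well-characterised genes of at least 2-fold, chosen after their values were seen, *Pttg1* (securin, which holds back separase) was at 67.4, 64.2 and 22.5 TPM, a ratio of 3.00. *Hddc3* was at 28.6, 9.99 and 28.7 TPM, and *Car12* (carbonic anhydrase XII) at 3.89, 14.26 and 14.96 TPM. The imprinted *Ndn* (necdin) was at 85.4, 148 and 69.3 TPM, and *S100a10* at 31.5, 67.8 and 27.3 TPM, both highest in embryo SMH_132. *Rad51c*, of homologous recombination, was at 7.70, 8.25 and 3.72 TPM and *Adcy2*, an adenylyl cyclase, at 18.3, 17.2 and 8.88 TPM, both lowest in embryo SMH_133.

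Whether such differences recurred was looked up in the second library of each embryo. Over all tested genes 28.3% had the same highest and the same lowest embryo there, and of the 252 genes of at least 2-fold 97 did (38.5%). Of these 252, 59 (23.4%) again differed by at least 2-fold between the same 2 embryos, against 1.22% of all tested genes. Among the 59 genes of at least 2-fold with 100 or more counts on average, 36 kept both embryos (61.0%), 35 differed by at least 2-fold again (59.3%), and the median ratio was 2.66 in Ctr and 2.64 in the second libraries. Among all tested genes with 100 or more counts these shares were 30.6% and 0.47%, and the median ratios 1.13 and 1.06. Without the sex chromosomes there were 52 such genes, of which 34 kept both embryos and 30 differed by at least 2-fold again. These counts take every gene as separate, although they include *Gm10800*, *Gm10801*, *Gm11168* and *Gm10719*, whose values cannot be taken as independent. Each of these kept both embryos, with ratios from 8.61 to 10.2 in the second libraries. So did *Gm21738*, *Gm10722*, *Gm26870*, *Gm10715*, *Gm10717* and *Gm10720*, whose shared words were not tested. *Rps3a3* differed by 159-fold in the second libraries, *Hist1h2al* by 37.1-fold, *Rprl3* by 30.2-fold, *Gm6166* by 18.1-fold and *Gm10704* by 11.1-fold between the same 2 embryos. *Pttg1* (2.48-fold), *Ndn* (2.25-fold), *Hddc3* (2.64-fold) and *Car12* (2.70-fold) differed by over 2-fold again as well, whereas *S100a10* (1.85-fold), *Rad51c* (1.77-fold) and *Adcy2* (1.74-fold) fell below 2-fold in the same direction. *CT010467.1* did not recur at its size, with 1.56-fold in the second libraries against 39.5-fold in Ctr, and for *Apod* (2.03-fold in Ctr, chosen after its values were seen) the same 2 embryos were in the opposite order, at 0.75-fold.

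**Figure D4:**
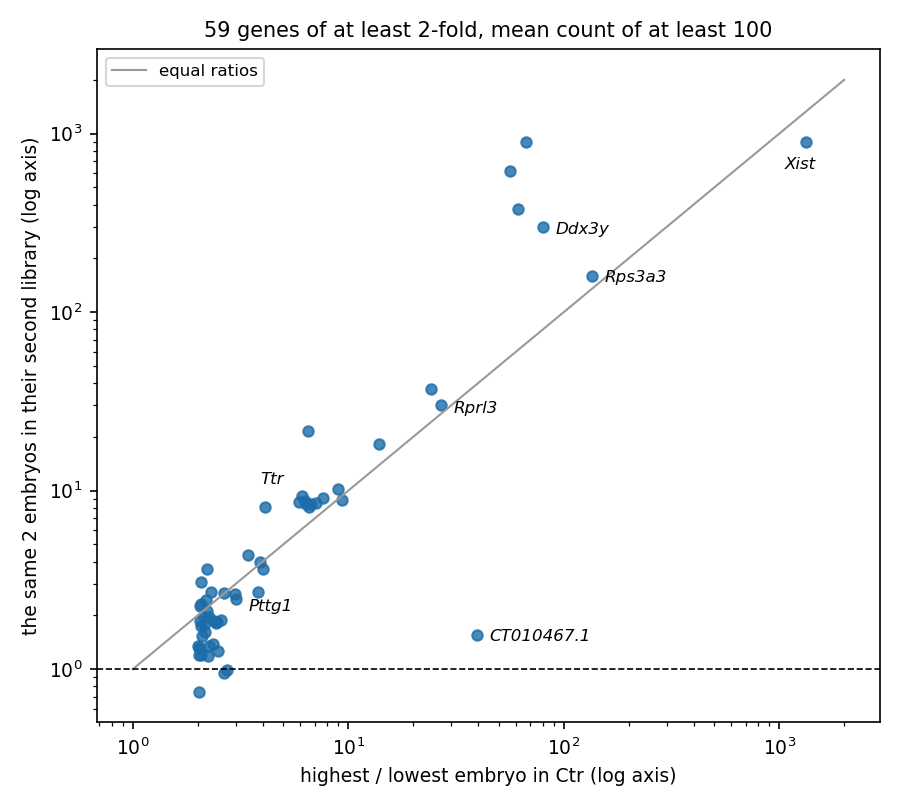
Ratio of the highest to the lowest embryo in Ctr (horizontal log axis) against the ratio of the same 2 embryos in their second library (vertical log axis) for the 59 genes of at least 2-fold with 100 or more counts on average, with a line for equal ratios and a dashed line at 1. Of the genes 35 lie at 2-fold or more on both axes, and *CT010467.1* lies at 39.5 against 1.56.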

How the data were processed

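Total RNA of 11 NPC libraries was sequenced after rRNA depletion with a stranded kit, and the 3 Ctr libraries and the second libraries of the same 3 embryos were used here. The authors aligned reads with STAR 2.5.4b to GRCm38 (base calls by bcl2fastq 1.8.4) and deposited raw read counts per Ensembl 92 gene from featureCounts 1.5.0, together with gene length. Counts of uniquely mapped reads on 1 gene, on its strand, were used as deposited. TPM were computed from counts and length over all genes, and are given as mean ± SD (n = 3 embryos, 1 library each). Spread was tested with edgeR 4.0.16 (R 4.3.3) in an intercept-only fit with dispersion 0 and TMM offsets, over genes kept by filterByExpr. Ratios used a prior of 0.5 counts, and a gene of 2-fold had an adjusted p under 0.05 (Benjamini-Hochberg) and a ratio of at least 2. The test was checked on simulated counts. No groups were compared. Other libraries of the series were not analysed here.

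Named genes were those of the gene lists, the highest members of transcription factor families, the 15 protein-coding and 10 other genes with the highest mean TPM, the 15 largest ratios among 2-fold genes of at least 1 TPM on average, and the 5 lowest CVs among protein-coding genes of at least 50 TPM. Other genes named are said to have been looked up or chosen after their values were seen. Members, lists and tests were chosen with earlier results of these data known. Alternatives were DESeq2 1.42.0 size factors, upper-quartile normalisation, other filters, a loess correction for gene length, other thresholds, other length scalings and leaving out each library. Some genes that the rule names are not reported here.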

Additional observations from a re-analysis of the deposited data

How the results depend on the processing

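Levels depended on the scaling. Over protein-coding genes only, *Sox2* averaged 635 TPM, *Nes* 574, *Vim* 2104 and *Fabp7* 5443, and as FPKM with TMM-scaled library sizes 140.0, 126.5, 464 and 1199. The number of genes that varied beyond counting error was between 6159 and 6575 under the other normalisations, filters and the length correction, but between 3993 and 4261 when 1 library was left out (4244 without embryo SMH_128, 4261 without embryo SMH_132 and 3993 without embryo SMH_133), where fewer samples were tested. Genes of at least 2-fold numbered 461 with no filter on low counts, 756 with a ratio of 1.5, 93 with a ratio of 2 alone and a mean of at least 50 counts, and between 120 and 130 when 1 library was left out, against between 243 and 263 otherwise. Genes at 1 TPM or more numbered between 16098 and 16281 without 1 library. The 15 largest ratios stayed at 2-fold in all 85 values under other settings, and 14 of 45 values with a library left out lost the ratio or the call (*Gm6768*, at 2.04-fold without embryo SMH_133, lost the call only). Each of these 14 lacked the library that stood apart, as for *Rps3a3*, at 1.11-fold without embryo SMH_132. No paired analysis was possible because no groups are compared. Below 100 counts on average the median CV (17.3%) was no larger than counting error (17.8%), so depth limits what can be said of such genes.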
